A study of Mus musculus with 29 samples.

Results

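The genes described here are 9 mouse cytochrome P450 genes that are known targets of the nuclear receptors CAR and PXR (Cyp2b10, Cyp3a11, Cyp3a13, Cyp3a25, Cyp2c29, Cyp2c37, Cyp2c50, Cyp2c54 and Cyp2c55) together with Por, which encodes their electron donor. They were taken by name, 10 of the 54532 gene identifiers in the count table, and all 10 passed the filter on low counts. RNA was sequenced from whole livers of male mice that ate chow until 8 weeks of age, when Cre recombination induced the Prox1 K556R allele in the liver. They then ate a diet with 45% fat and 20% fructose for 18 weeks. Prox1 is a homeobox factor of hepatocytes, and K556R replaces the lysine at which the protein is modified by SUMO. The 4 groups were fasted wild type (WT, 8 livers), fasted K556R (7), refed wild type (6) and refed K556R (8). All of the mice ate this diet, so no group shows these genes on chow. The labels do not say how Cre was delivered or whether wild-type mice got it. Collection was at zeitgeber time 15 to 17. The labels place every liver in batch 1 or batch 2, without saying what a batch was. Batch 1 held 4, 4, 3 and 4 livers of those groups in that order, and batch 2 held 4, 3, 3 and 4.

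CAR (Nr1i3) and PXR (Nr1i2) are nuclear receptors of the liver that sense drugs, bile acids and other small molecules. Each pairs with RXR and binds DNA repeats of a hexamer close to AGGTCA in target enhancers. Cyp2b10 is the classical CAR target of mouse liver, and Cyp3a11 is the classical PXR target. The Cyp2c enzymes oxidise fatty acids, steroids and drugs, and several of them respond to CAR. Each of these enzymes takes electrons from NADPH through the reductase made from Por, so all of them depend on it. CAR activity in mouse liver is also known to rise on fasting.

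The libraries held 14385218 to 27278251 counts, and 15603 genes were tested. Counts of the 10 genes made up 0.268 to 0.535% of a library. Gene-level counts do not show which Prox1 allele a liver carried, so they do not check the genotype labels. In bulk liver RNA, fewer cells of a type and less RNA per cell cannot be told apart. The labels do not say whether the livers were handled separately throughout, so each p-value reflects only how these libraries scatter, which may be technical. The 9 hepatocyte markers summed to 64920 to 115200 CPM (counts scaled to library size) over the livers, while 6 adipocyte genes summed to 10.7 to 43.3 CPM (Lep alone at 0) and 11 intestinal and pancreatic genes to 127.5 to 226.9 CPM (Cdx1 alone at 0). 3 libraries stood apart. Fasted WT replicate 3 of batch 1 had a summed lymphocyte marker level of 230.1 CPM, against 20.1 to 47.6 CPM in all the others. Refed K556R replicate 4 of batch 1 and refed WT replicate 1 of batch 2 had the largest scatter around their group and batch means, with standard deviations of 0.469 and 0.464 log2 units over genes, against 0.242 to 0.388 in the others. Results are given with and without these 3 libraries where the difference matters.

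The sequences upstream of the starts that RefSeq gives the genes show which members share letters there. They are given 5′ to 3′ on the gene's strand, in build GRCm38.p6, from RefSeq, which had an entry for 9 of the 10 genes. The hexamers AGGTCA and AGTTCA were searched on both strands over the 250 bases before each RefSeq start. These starts are not always the ends of the gene spans given further on, which come from GENCODE. Those of Cyp3a11, Cyp2b10, Cyp2c29 and Por lie inside the span, for Cyp2c29 and Por far inside it. The printed stretch leaves out the bases next to the start that GENCODE annotates as exon, so it is 212 bases for Cyp2b10, 140 for Cyp3a11 and 239 for Cyp2c29, and the whole 250 for Cyp3a25. Of the 9 genes, 4 held at least 1 match, against 24.2% of 32851 such windows in the genome, and 2 held at least 2, against 3.7%. The classical CAR target and the classical PXR target and its neighbour are shown first, with matches in capitals. A match is a description of letters and not of a bound receptor, and the distal enhancers through which CAR and PXR act lie outside these windows.
Cyp2b10 (chr7:25897408-25897619, plus strand, no match): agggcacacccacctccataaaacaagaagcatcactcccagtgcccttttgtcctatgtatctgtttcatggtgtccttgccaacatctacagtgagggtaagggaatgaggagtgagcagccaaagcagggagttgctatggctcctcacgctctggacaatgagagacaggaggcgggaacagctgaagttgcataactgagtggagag
Cyp3a11 (chr5:145879965-145880104, minus strand): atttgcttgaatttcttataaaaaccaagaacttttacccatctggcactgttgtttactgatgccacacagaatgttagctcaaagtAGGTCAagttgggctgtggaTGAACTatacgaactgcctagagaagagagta
Cyp3a25 (chr5:146009619-146009868, minus strand): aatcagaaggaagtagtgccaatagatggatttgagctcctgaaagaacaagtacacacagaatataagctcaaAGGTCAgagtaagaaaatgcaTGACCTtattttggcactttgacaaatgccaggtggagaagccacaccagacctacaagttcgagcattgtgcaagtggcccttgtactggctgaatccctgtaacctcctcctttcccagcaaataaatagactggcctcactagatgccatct
Cyp2c29 (chr19:39286835-39287073, plus strand): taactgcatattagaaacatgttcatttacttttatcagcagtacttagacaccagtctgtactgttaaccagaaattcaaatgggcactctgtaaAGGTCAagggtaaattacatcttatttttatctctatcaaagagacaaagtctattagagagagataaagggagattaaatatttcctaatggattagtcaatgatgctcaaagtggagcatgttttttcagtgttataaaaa

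In Cyp3a11 and Cyp3a25 the matches came as a facing pair. In Cyp3a11 an AGGTCA 162 bases before the RefSeq start faced an AGTTCA on the opposite strand, and in Cyp3a25 both were AGGTCA. Cyp2c29 had a single AGGTCA 154 bases before its RefSeq start. Among the members, Cyp2c37 and Cyp2c50 had the most similar upstream windows, 84.3% identical, and the next pair, Cyp2c29 and Cyp2c50, had 55.9%. The last 150 bases of Cyp2c37 and Cyp2c50 are shown because their windows were the most alike. Capitals mark bases that differ or have no partner, and 131 of 155 aligned columns were identical.
Cyp2c37 (chr19:39992274-39992423, plus strand): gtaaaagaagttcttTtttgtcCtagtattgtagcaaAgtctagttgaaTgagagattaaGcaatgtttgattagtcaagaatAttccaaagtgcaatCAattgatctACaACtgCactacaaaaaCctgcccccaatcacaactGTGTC
Cyp2c50 (chr19:40089529-40089678, plus strand): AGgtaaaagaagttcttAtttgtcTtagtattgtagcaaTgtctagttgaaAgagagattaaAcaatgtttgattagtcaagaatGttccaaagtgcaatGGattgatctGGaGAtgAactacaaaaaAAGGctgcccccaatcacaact

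The Cyp2c genes lie together on chromosome 19 (mm10). In order they are Cyp2c55 (39007019-39042693, plus strand), Cyp2c29 (39269405-39330713, plus), Cyp2c37 (39992424-40012243, plus), Cyp2c54 (40037940-40073827, minus) and Cyp2c50 (40089688-40113950, plus). Chromosome 5 carries Por (135670033-135735326, plus strand), Cyp3a13 (137892932-137921619, minus), Cyp3a11 (145854426-145879964, minus) and Cyp3a25 (145977194-146009618, minus). Cyp2b10 lies on chromosome 7 (25897620-25926624, plus). The coding sequences of Cyp2c37, Cyp2c50 and Cyp2c54 were 95.1 to 96.1% identical to each other. Of their 50-base windows, 26.9 to 32.4% also occurred in another gene of these families, so the split of reads among them is uncertain. Cyp2c29 shared 0.633% of its windows, and Cyp3a13, Cyp2c55 and Por shared 0.0%. Cyp3a11 shared 23.0% of its windows, and it is 95.2% identical to Cyp3a41a, 95.0% to Cyp3a41b and 94.9% to Cyp3a44. The weight of reads from those genes on Cyp3a11 was not tested. Cyp3a25 shared 30.3% of its windows. Cyp3a25 is 97.5% identical to Cyp3a59, whose counts were low beside it (medians of 26.1 to 32.6 CPM by group). Cyp2b10 shared 10.8% of its windows, 9.86% of them with Cyp2b13. Cyp2b13 had group medians of 4.87 to 12.9 CPM, above the medians of Cyp2b10 (0.705 to 4.57 CPM) in each of the 4 groups, so reads from Cyp2b13 could weigh on Cyp2b10, and this was not tested.

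Levels per kilobase of exon ordered the genes over all 29 livers. Cyp3a11 was highest, at 369 ± 96.1 CPM per kilobase (mean ± SD, n = 29), and Cyp3a25 followed at 303 ± 53.6. Por, Cyp2c50 and Cyp2c29 were at 126 ± 53.0, 116 ± 37.6 and 107 ± 46.1 CPM per kilobase, and these neighbours did not differ beyond their spread. Cyp2c37 was at 80.0 ± 28.5, Cyp3a13 at 71.6 ± 15.1 and Cyp2c54 at 29.1 ± 19.7 CPM per kilobase. Cyp2b10 and Cyp2c55 were far below, at 1.41 ± 1.60 and 0.941 ± 0.456 CPM per kilobase. Divided by the longest transcript instead of all exons, Cyp3a11 had a mean of 670.0 CPM per kilobase, Por 192 and Cyp2c50 185, with Cyp3a11 still highest. Counts of the lowest pair were small, 5 to 288 per library for Cyp2b10 and 9 to 87 for Cyp2c55, while Cyp3a11 had 17751 to 81843. The highest library exceeded the lowest 46.8-fold for Cyp2b10, 15.2-fold for Cyp2c54 and 2.33-fold for Cyp3a25. The 2 genes called the classical targets therefore differed in both abundance and spread: Cyp3a11 was abundant and varied 2.99-fold, and Cyp2b10 was scarce and varied most.

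Refeeding answers whether these genes follow the feeding state. Averaged over the genotypes, 4 of the 10 genes passed the test after refeeding (edgeR quasi-likelihood, Benjamini-Hochberg adjusted p below 0.05 over all genes): Por, Cyp2b10 and Cyp3a13 fell and Cyp2c55 rose. At the same threshold 25.6% of all genes tested passed, and the 10 genes are too few to set that share against theirs. In WT alone 2 genes passed, against 10.7% of all genes, and in K556R alone 2 passed, against 15.4%. Por passed in both genotypes, Cyp2c55 in WT and Cyp2b10 in K556R. None of the 10 passed for a difference between genotypes in the refeeding response, and 0.0% of all genes did, which is taken up with the K556R effect.

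Por, the reductase, fell by 0.95 on the log2 scale (SE 0.13, edgeR adjusted p = 2.43e-06), to 0.518 of its fasted level. In batch 1 the fasted WT livers were at 695, 576, 956 and 562 CPM and the refed ones at 320, 299.9 and 345 CPM. The fasted K556R livers of batch 1 were at 760.3, 766, 606 and 484 CPM, and the refed ones at 279, 251, 219.5 and 180.2 CPM. Every fasted liver of batch 1 was above every refed one. In batch 2 the fasted WT livers were at 619, 1050, 448 and 787 CPM and the refed ones at 379, 449 and 507 CPM. The fasted K556R livers there were at 583, 545 and 442 CPM and the refed ones at 466.2, 396, 366 and 369.5 CPM. The ranges overlapped in batch 2, and the fall there was 0.56 on the log2 scale (SE 0.15, edgeR adjusted p = 0.0178, within batch 2), against 1.29 in batch 1 (edgeR adjusted p = 6.17e-06). The difference between batches was 0.76 (SE 0.21, edgeR adjusted p = 0.0512), which did not pass.

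Cyp2b10, the classical CAR target, was the gene with the largest fitted refeeding difference, 3.32-fold lower after refeeding (log2 −1.73, SE 0.49, edgeR adjusted p = 0.00890). Within batch 1 the fall passed on its own, and within batch 2 it did not. In batch 1 the fasted WT livers were at 2.96, 3.28, 8.90 and 8.06 CPM and the refed ones at 1.05, 0.237 and 0.946 CPM. The fasted K556R livers of batch 1 were at 11.1, 4.57, 10.3 and 9.01 CPM and the refed ones at 0.547, 0.862, 1.2 and 0.495 CPM. The fasted and refed ranges of batch 1 did not overlap in either genotype, and the fall was 3.21 on the log2 scale (SE 0.35, edgeR adjusted p = 7.77e-06, within batch 1). In batch 2 the same comparison gave −0.10 (SE 0.62, edgeR adjusted p = 0.939). The fasted WT livers of batch 2 were at 0.652, 3.94, 0.345 and 2.56 CPM and the refed ones at 6.57, 0.363 and 1.39 CPM. The fasted K556R livers of batch 2 were at 1.83, 1.80 and 0.280 CPM and the refed ones at 1.07, 1.18, 0.451 and 0.467 CPM. Fasted livers of batch 2 thus spanned 0.280 to 3.94 CPM, against 2.96 to 11.1 CPM in batch 1. The refed WT liver of batch 2 at 6.57 CPM was one of the 3 libraries that stood apart. It enters the batch 2 average above, and batch 2 alone was not fitted without it. Within batch 2, K556R, whose livers do not include it, gave −0.74 (SE 0.92, edgeR adjusted p = 0.651). WT gave 0.55 there (SE 0.84, edgeR adjusted p = 0.790). Over both batches without that liver alone, the refeeding fall in WT was 2.22 on the log2 scale (edgeR adjusted p = 0.0180). With that liver WT gave −0.90 (SE 0.68, edgeR adjusted p = 0.472). In K556R the fall was 2.56 (SE 0.67, edgeR adjusted p = 0.00740).

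**Figure D1:**
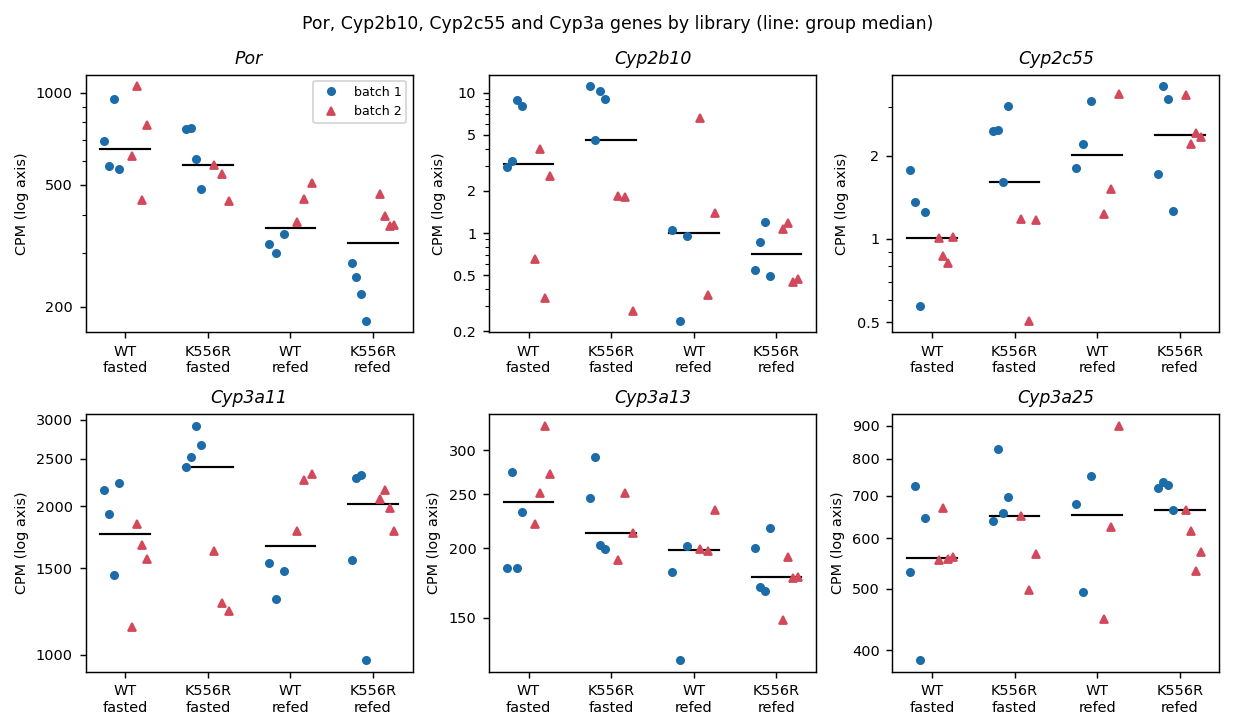
CPM on a log axis of Por, Cyp2b10, Cyp2c55, Cyp3a11, Cyp3a13 and Cyp3a25 in each of the 29 livers by group, with circles for batch 1, triangles for batch 2 and a line at the group median. Cyp2b10 of fasted batch 1 livers lies at 2.96 to 11.1 CPM and every refed batch 1 liver lies at 1.2 CPM or below, while in batch 2 the groups overlap.

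Cyp3a13 fell by 0.35 on the log2 scale after refeeding (SE 0.088, edgeR adjusted p = 0.00362), a small change. Its lowest, median and highest CPM were 184, 242 and 333 in fasted WT and 126, 198 and 234 in refed WT. In fasted K556R they were 190.5, 213 and 292 and in refed K556R 148, 177 and 218 CPM. The ranges overlapped in both genotypes, and the fitted difference was close in the batches, −0.33 in batch 1 (edgeR adjusted p = 0.0854) and −0.36 in batch 2 (edgeR adjusted p = 0.0179). Neither genotype alone passed, with edgeR adjusted p of 0.0682 in WT and 0.0604 in K556R.

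Cyp2c55, a known CAR and PXR target that makes hydroxylated fatty acids, rose by 0.81 on the log2 scale (SE 0.20, edgeR adjusted p = 0.00303). In WT the fasted livers were at 1.78, 1.36, 0.571 and 1.25 CPM in batch 1 and at 1.01, 0.869, 0.818 and 1.01 CPM in batch 2. The refed WT livers were at 1.81, 2.22 and 3.15 CPM in batch 1 and at 1.23, 1.51 and 3.34 CPM in batch 2. Within each batch every refed WT liver was above every fasted one. In batch 1 the nearest of them, at 1.81 and 1.78 CPM, both had 38 counts, so only the scaling separated them. Over both batches together the WT ranges overlapped. The fasted K556R livers were at 2.46, 2.48, 1.60 and 3.04 CPM in batch 1 and the refed ones at 1.73, 3.57, 3.22 and 1.27 CPM, so that these overlapped. In batch 2 the fasted K556R livers were at 1.18, 0.506 and 1.18 CPM and the refed ones at 3.32, 2.20, 2.43 and 2.33 CPM, which did not overlap. Averaged over genotypes the difference was 0.51 in batch 1 (edgeR adjusted p = 0.198), which did not pass, and 1.27 in batch 2 (edgeR adjusted p = 0.00424). In WT the difference was 1.04 (SE 0.29, edgeR adjusted p = 0.0188). It no longer passed without refed WT replicate 3 of batch 1 (0.96, edgeR adjusted p = 0.0555) or without refed WT replicate 3 of batch 2 (0.81, edgeR adjusted p = 0.0776).

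Cyp3a11, the most abundant of the set, did not pass for refeeding on average (log2 −0.03, SE 0.14, edgeR adjusted p = 0.903), but its batches went opposite ways. In batch 1 the fasted K556R livers were at 2407, 2517, 2917 and 2670 CPM and the refed ones at 1560, 2287, 2321 and 976 CPM. The fasted WT livers of batch 1 were at 2164, 1932, 1455 and 2230 CPM and the refed ones at 1539, 1295 and 1479 CPM. In batch 2 the fasted K556R livers were at 1623, 1273 and 1227 CPM and the refed ones at 2069, 2160, 1984 and 1780 CPM. All of the batch 2 refed K556R livers were above all of the fasted ones, and in batch 1 all were below. The fasted WT livers of batch 2 were at 1139, 1845, 1669 and 1561 CPM and the refed ones at 1779, 2258 and 2325 CPM. The refeeding difference was −0.49 in batch 1 (SE 0.15, edgeR adjusted p = 0.0360) and 0.48 in batch 2 (SE 0.11, edgeR adjusted p = 0.00563).

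The difference of the refeeding effect between batches was tested in a fit with 8 group and batch means, a comparison added after the levels in each batch were seen. It passed for 2 of the 10 genes, against 2.74% of all genes. For Cyp3a11 it was 0.99 (SE 0.20, edgeR adjusted p = 0.0101) and for Cyp2b10 3.13 (SE 0.75, edgeR adjusted p = 0.0242). Without the 3 libraries that stood apart, Cyp3a11 gave 1.00 (edgeR adjusted p = 0.00194) and Cyp2b10 2.11 (edgeR adjusted p = 0.113). Within batch 1 alone 3 of the 10 genes passed for refeeding averaged over genotypes, against 17.4% of all genes, and within batch 2 alone 5 passed, against 18.2%. In batch 2 Cyp2c54 (log2 −1.03, edgeR adjusted p = 0.0118), Por and Cyp3a13 fell, and Cyp2c55 and Cyp3a11 rose. PXR itself (Nr1i2), looked up after the values were seen, also differed between batches in its refeeding effect, by 0.66 (SE 0.13, edgeR adjusted p = 0.00644). Of 18 receptor and partner genes, described further on, 1 passed above 0 in this comparison and 2 passed below 0. Their median was −0.09. The part of the batch in these results was not tested beyond these values, because the labels do not say what separated the batches.

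**Figure D2:**
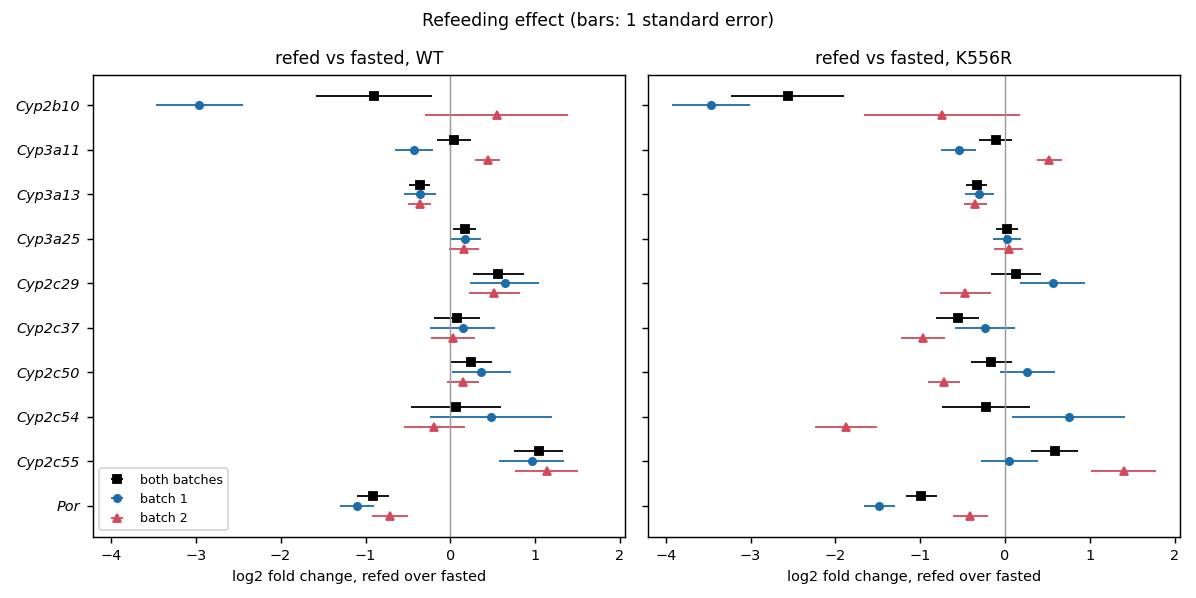
Log2 fold change, refed over fasted, of the 10 genes in WT (left) and K556R (right), with squares for both batches, circles for batch 1, triangles for batch 2 and bars of 1 standard error. Por lies below 0 in every fit, and Cyp3a11 lies below 0 in batch 1 and above 0 in batch 2.

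Cyp2c29, Cyp2c37, Cyp2c50 and Cyp2c54, which oxidise fatty acids and drugs, did not pass for refeeding on average, with log2 differences of 0.35, −0.24, 0.04 and −0.08 (edgeR adjusted p of 0.253 to 0.906). Their spread within a group was wide. Cyp2c54 shows it: the fasted WT livers were at 9.48, 63.5, 19.2 and 11.7 CPM in batch 1 and 62.0, 57.4, 57.7 and 113 CPM in batch 2, and the refed WT livers at 49.7, 11.8 and 46.9 CPM in batch 1 and 103.5, 36.1 and 52.4 CPM in batch 2. In batch 2 the fasted K556R livers were at 85.0, 109.6 and 68.2 CPM and the refed ones at 11.2, 28.5, 30.4 and 26.6 CPM, and did not overlap. The fasted K556R livers of batch 1 were at 26.6, 73.2, 46.7 and 23.5 CPM and the refed ones at 91.1, 25.9, 22.2 and 143.8 CPM. Within batch 2, 5 of the 10 genes passed for refeeding in K556R, against 12.5% of all genes. They were Cyp2c54 (log2 −1.87, edgeR adjusted p = 0.00389), Cyp2c37 (−0.97, edgeR adjusted p = 0.0222), Cyp2c50 (−0.72, edgeR adjusted p = 0.0214), Cyp2c55 (1.40, edgeR adjusted p = 0.0257) and Cyp3a11 (0.52, edgeR adjusted p = 0.0341). Batch 1 gave differences of 0.75, −0.24 and 0.26 for Cyp2c54, Cyp2c37 and Cyp2c50 in K556R, and none passed. The difference between batches did not pass for Cyp2c54 (−1.62, SE 0.61, edgeR adjusted p = 0.148).

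**Figure D3:**
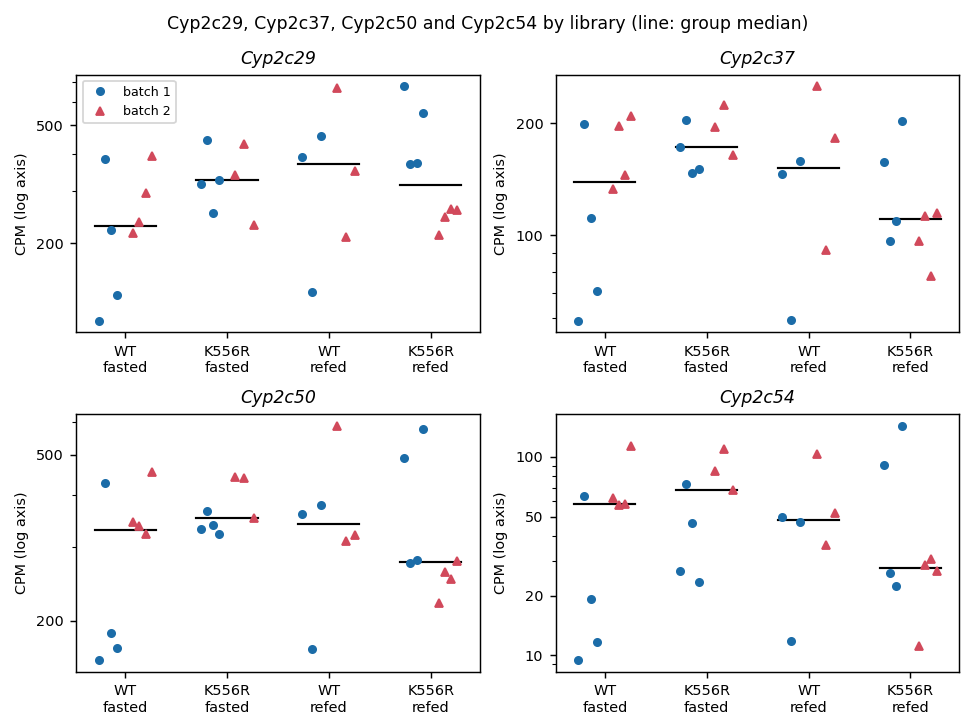
CPM on a log axis of Cyp2c29, Cyp2c37, Cyp2c50 and Cyp2c54 in each of the 29 livers by group, with circles for batch 1, triangles for batch 2 and a line at the group median. Cyp2c54 spans 9.48 to 143.8 CPM, and its 4 refed K556R livers of batch 2 lie at 11.2 to 30.4 CPM.

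Without the 3 libraries that stood apart, 4 genes passed in WT, against 11.6% of all genes. They were Por (−0.78), Cyp2c55 (1.01), Cyp2b10 (−2.06) and Cyp3a13 (−0.41). In K556R 5 passed, against 17.6%: Por (−0.92), Cyp2b10 (−2.33), Cyp3a13 (−0.38), Cyp2c37 (−0.72) and Cyp2c55 (0.72). Cyp3a25, the other Cyp3a gene of the set, had fasted medians of 558 CPM in WT and 649.8 CPM in K556R and refed medians of 652 and 664 CPM, and its refeeding difference of 0.10 (edgeR adjusted p = 0.495) did not pass.

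The K556R effect was compared next. None of the 10 genes passed for K556R against WT when fasted, where 0.103% of all genes did, or when refed, where 0.0% did, or on average over both, where 1.24% did. In the fasted livers 8 of the 10 were above 0, with a median of 0.35 on the log2 scale and a range of −0.22 (Por) to 0.65 (Cyp2c55). For Cyp2c55 the difference was 0.65 (SE 0.29, edgeR adjusted p = 0.480), and it had the only unadjusted p under 0.05 of the 10, while 1479 of all genes had one. In the refed livers 4 of the 10 were above 0, with a median of −0.04 and a range of −1.26 to 0.19. The largest value there, Cyp2b10 at −1.26 (SE 0.73), rested on the refed WT liver at 6.57 CPM, and without it was 0.11. None of the 10 refed values had an unadjusted p under 0.05, against 1319 of all genes. By DESeq2, too, 0 of the 10 passed in each of these 3 comparisons. The interaction of K556R with refeeding passed for 0 of the 10 (median −0.35, smallest edgeR adjusted p of 0.9999 and no unadjusted p under 0.05, DESeq2 0 as well). These results do not show that K556R and WT act alike. The 95% interval of the fitted fasted difference was widest for Cyp2b10, from −0.76 to 1.57. For Cyp3a13 it was narrowest, from −0.34 to 0.16.

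Within batches some K556R and WT ranges did not overlap, but none of the 10 genes passed within a batch, fasted or refed. Of all genes, 33 fasted and 5 refed passed in batch 1, and 0 fasted and 7 refed in batch 2. In the fasted livers of batch 1, every K556R liver was above every WT liver for Cyp3a11 (2407 to 2917 against 1455 to 2230 CPM). In the refed livers of batch 2, the Cyp2c54 levels of K556R (11.2 to 30.4 CPM) lay below all of WT (36.1 to 103.5 CPM). Cyp2c50 and Cyp3a13 also did not overlap in those refed livers, with K556R at 220.5 to 279 against 312 to 588 CPM for Cyp2c50 and at 148 to 193 against 198 to 234 CPM for Cyp3a13. For Por the refed livers of batch 1 did not overlap, at 180.2 to 279 CPM in K556R against 299.9 to 345 CPM in WT. The ranges overlapped in the other within-batch comparisons of K556R with WT. The edgeR adjusted p within the batch was 0.601 for Cyp3a11, 0.167 for Cyp2c54, 0.185 for Cyp2c50, 0.409 for Cyp3a13 and 0.514 for Por. With 3 or 4 livers a side ranges can separate by scatter, and the share of all genes that separated was not counted. The K556R effect of batch 2 minus that of batch 1 was below 0 for all 10 genes. Their median was −0.62, against −0.01 over all genes tested. Other lists shifted as well: 0 of 10 male-biased liver genes (median −1.50) and 0 of 20 interferon genes (median −0.67) were above 0. Of 14 macrophage genes, 12 were above 0 (median 0.35). Cyp2c29, Cyp2c37, Cyp2c50 and Cyp2c54 moved together from liver to liver, as described further on, so the 10 genes described here are not independent. For 6 of the 10 the unadjusted p was under 0.05, while 1358 of 15603 genes had one. Without the 3 libraries that stood apart this held for 2 of the 10, and with robust dispersion for 3. None of the 10 passed after adjustment (smallest edgeR adjusted p of 0.530), where 0.0% of all genes did, and DESeq2 also gave 0 of the 10. The levels of the 2 batches themselves did not differ beyond the threshold for any of the 10, while 22.1% of all genes did. Without the refed WT liver at 6.57 CPM, Cyp2b10 was lower in batch 2 (log2 −1.31, edgeR adjusted p = 0.0184).

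**Figure D4:**
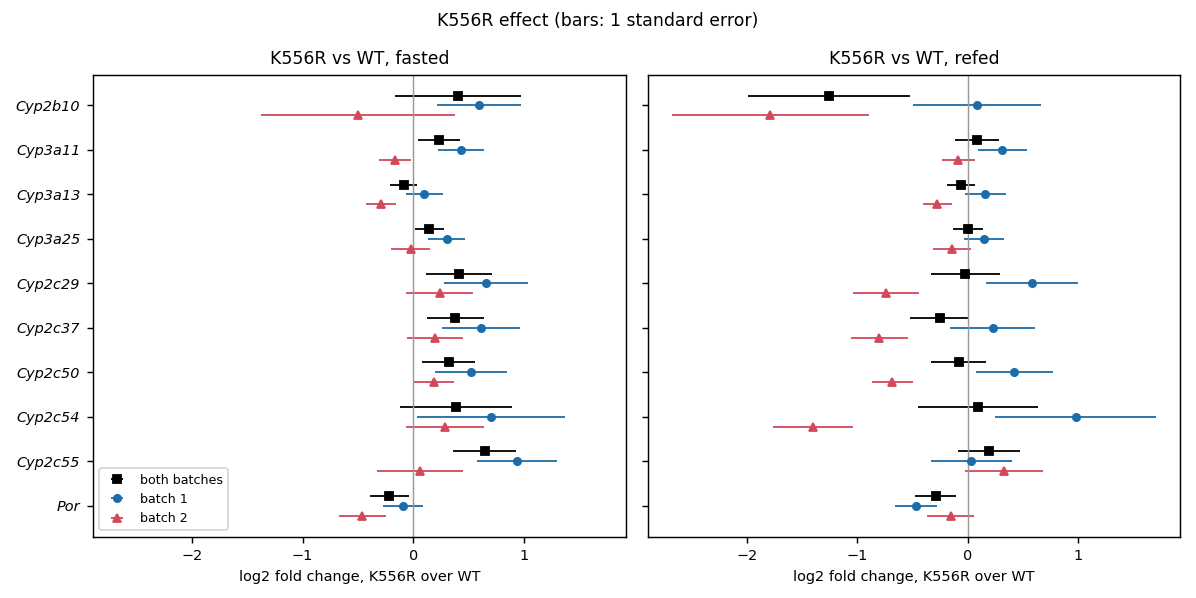
Log2 fold change, K556R over WT, of the 10 genes in fasted (left) and refed (right) livers, with squares for both batches, circles for batch 1, triangles for batch 2 and bars of 1 standard error. In the fasted livers 8 of the 10 squares lie above 0, and in the refed livers the batch 2 values of Cyp2c29, Cyp2c37, Cyp2c50 and Cyp2c54 lie below 0 while those of batch 1 lie above.

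Livers of one group also differed from each other, and some of the genes moved together across them. Pearson's r was taken between log2 CPM values of 2 genes over the 29 livers after the mean of each group and batch was removed. Of 45 pairs, 13 passed (two-sided permutation test of 100000 resamples, Benjamini-Hochberg adjusted over the 45), and all 13 were positive. Cyp2c29, Cyp2c37, Cyp2c50 and Cyp2c54 made up a block in which all 6 pairs passed, with r of 0.832 to 0.923 and Spearman's rho of 0.827 to 0.917. Their smallest permutation p was 1e-05, the smallest the permutations can give. Without the 2 livers farthest from the median of the first gene of a pair, in the order of the opening list, r was 0.767 to 0.896. Within batch 1 it was 0.853 to 0.957 and within batch 2 0.611 to 0.870, where none passed alone. Reads shared among Cyp2c37, Cyp2c50 and Cyp2c54 could raise their r, and the size of that share was not tested. Cyp2c29, which shares 0.633% of its windows with other genes of the families, had an r of 0.832 to 0.908 with the other 3.

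Cyp3a13 moved with that block over all livers, at r of 0.581 to 0.660 (adjusted permutation p of 0.01 to 0.0286) and rho of 0.548 to 0.628 (adjusted permutation p of 0.0177 to 0.0314), and at 0.788 to 0.806 within batch 1 but −0.03 to 0.31 within batch 2. Cyp3a11 went with Cyp3a25 (r = 0.476, rho 0.546, adjusted permutation p = 0.00797) and with Cyp2c55 (r = 0.578, rho 0.476, adjusted permutation p = 0.0496). Cyp3a25 and Cyp2c55 gave r = 0.625 (rho 0.557, adjusted permutation p = 0.0234). For Cyp3a11 and Cyp2c55 the rho did not pass (adjusted permutation p = 0.142). Without the 2 livers farthest from the median, 7 of the 45 pairs passed, the 6 of the block and Cyp3a11 with Cyp3a25 (r = 0.555). The r was then 0.414 to 0.550 for Cyp3a13 with the block, 0.566 for Cyp3a11 with Cyp2c55 and 0.453 for Cyp3a25 with Cyp2c55. These pairs no longer passed, although the r of Cyp3a11 with Cyp2c55 was nearly as large as before. No pair with Cyp2b10 passed. Its r with Cyp2c37 was 0.834 in batch 2 and 0.07 in batch 1.

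**Figure D5:**
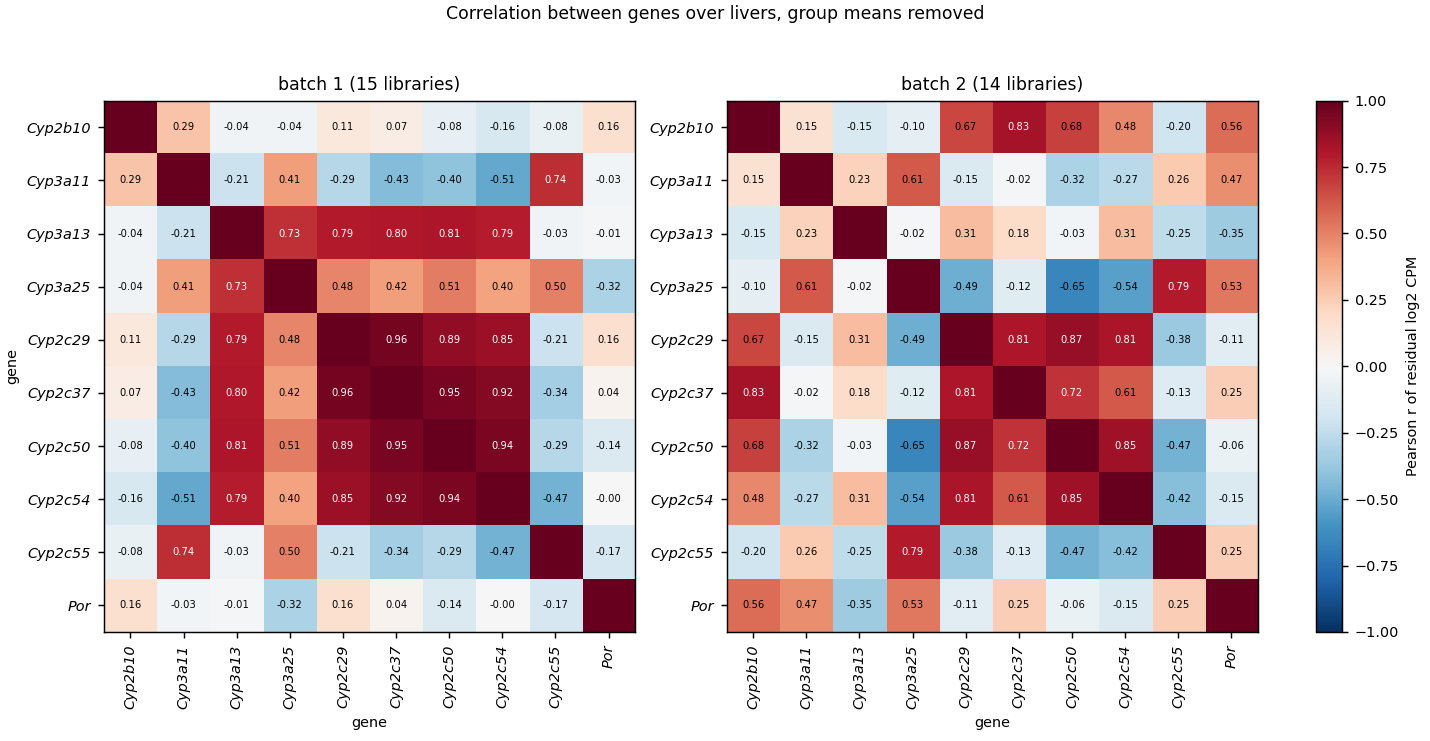
Pearson r of residual log2 CPM between each pair of the 10 genes over the 15 livers of batch 1 (left) and the 14 of batch 2 (right), from blue (negative) to red (positive). Cyp2c29, Cyp2c37, Cyp2c50 and Cyp2c54 form a red block in both, 0.853 to 0.957 in batch 1 and 0.611 to 0.870 in batch 2.

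Other genes moved most like the 2 classical targets by the same measure, given here as a description. For Cyp2b10 the highest r over the 29 livers were with Acox2, an enzyme of bile acid side-chain oxidation (0.785), 1810053B23Rik (0.768), Nhej1, a DNA repair factor (0.763), Cdip1 (0.72) and Fkbp5, a glucocorticoid-induced chaperone (0.716). Within batch 1 these r were lower, from 0.297 (Fkbp5) to 0.622 (1810053B23Rik), with Acox2 at 0.483. Within batch 2, which holds the refed WT liver at 6.57 CPM, they were 0.816 to 0.864. For Cyp3a11 the highest r were with Sh2d4a (0.864), the transporters Slc22a27 (0.820) and Slc22a29 (0.818), Rnf145 (0.809) and Rcan2 (0.804). Within batch 1 these r were 0.779 to 0.924 and within batch 2 0.5485 to 0.869.

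The receptors and partners of CAR and PXR were read from a list. Of 18 such genes tested, 4 rose and 7 fell after refeeding averaged over genotypes, where 25.6% of all genes passed. Their median was −0.11, against 0.01 over all genes. Rxra, the partner of CAR and PXR, fell by 0.28 on the log2 scale (edgeR adjusted p = 1.02e-05). Ppargc1a, a coactivator of the fasted liver, fell by 0.57 (edgeR adjusted p = 0.000184), Ncor1, a corepressor, fell by 0.26 (edgeR adjusted p = 0.000316), and Hnf4a, a hepatocyte factor, fell by 0.23 (edgeR adjusted p = 0.000335). The receptors themselves were looked up after the values were seen. PXR (Nr1i2) fell by 0.37 on average (SE 0.089, edgeR adjusted p = 0.00211), with group medians of 158 and 138 CPM in fasted WT and K556R and 106 and 108 CPM in refed WT and K556R. The refeeding effect on PXR differed between the batches, as given above, so this average need not describe either batch. CAR (Nr1i3) was at medians of 69.0, 76.6, 67.8 and 57.8 CPM in fasted WT, fasted K556R and then the refed livers of WT and K556R. Its refeeding difference on average was −0.19 (SE 0.081, edgeR adjusted p = 0.0923) and did not pass, while in K556R it was −0.37 (SE 0.11, edgeR adjusted p = 0.0245). For K556R against WT averaged over feeding none of the 18 passed, where 1.24% of all genes did.

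Of 29 other targets of CAR and PXR, 3 rose and 6 fell after refeeding, with a median of −0.05. In that comparison 25.6% of all genes passed, so the count of this list is near the background. The same share stands behind the refeeding counts of the other lists here. Ugt2b35, a glucuronosyltransferase, rose by 0.69 (edgeR adjusted p = 1.80e-08) and Tsku, a secreted factor, rose by 0.40 (edgeR adjusted p = 0.00135). Gadd45b, a stress gene that binds CAR, fell by 1.55 on the log2 scale (edgeR adjusted p = 7.32e-06) and Alas1, the first enzyme of haem synthesis, fell by 0.93 (edgeR adjusted p = 0.000753). Of 13 electron and haem partners 3 rose and 4 fell, among them Alad and Cyb5b, which rose by 0.34 and 0.39, and Hmox2, which fell by 0.33. The P450 targets of PPARα, whose list was tested beside them, were 4 genes of the Cyp4a family and all 4 fell, with a median of −1.11: Cyp4a14 fell by 1.24, Cyp4a32 by 1.12, Cyp4a10 by 1.10 and Cyp4a31 by 0.54. Of 12 pericentral markers, which sit in the zone where these P450s are highest, 1 rose and 3 fell, a count near the 25.6% of all genes, and their summed CPM had group medians of 12100 in fasted WT, 11910 in fasted K556R, 11070 in refed WT and 9067 in refed K556R. Acute phase genes fell in 8 of 13 cases, with a median of −0.63, and the macrophage list had no gene that passed, though all 14 were below 0. The part of these lists in the changes of the 10 genes was not tested. In K556R against WT averaged over feeding 1.24% of all genes passed. None of the other CAR and PXR targets, electron partners, PPARα targets, pericentral genes or family paralogs did, and lists this small give few at that share. Of 20 interferon genes 19 were higher in K556R. Their K556R effect of batch 2 minus that of batch 1 had a median of −0.67, and batch 2 alone gave 0 of all genes for K556R averaged over feeding.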

How the data were processed

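Liver poly(A) RNA was sequenced in 29 libraries on an Illumina platform, per the labels' protocols, and the authors deposited 1 table of read counts per gene. STAR, HTSeq, TopHat, DESeq2, edgeR and build mm10 appear in the submitters' processing notes, without their roles. The annotation release and the strand setting are not given in the sources used here. Of 54532 identifiers, 54495 matched GENCODE names and 37 did not (0.0009% of counts).

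Counts were tested with edgeR 4.0.16 (R 4.3.3, limma 3.58.1): filterByExpr with a minimum count of 10 and a minimum total of 15, which left 15603 genes and 99.92% of counts, then TMM scaling, group means with batch as a covariate, glmQLFTest and Benjamini-Hochberg adjustment over all genes tested. CPM values use TMM-scaled library sizes. The common biological coefficient of variation was 0.191. Counting error is small beside this except for Cyp2b10 and Cyp2c55. DESeq2 1.42.0 and other scalings, filters and subsets were alternatives. The tests were also tested on simulated data. Correlations used scipy 1.17.1 and numpy 2.4.6.

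The members and gene lists were chosen with earlier results of these data known. All 10 members are named in each comparison, with at most the 4 genes of smallest p in each other list and the 5 genes most like Cyp2b10 and Cyp3a11. The test of the refeeding effect between batches, and the fit without 3 libraries, were added after the data were seen. Within groups, 92 pairs of libraries all differed by more than counting noise, so none was treated as a duplicate.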

Additional observations from a re-analysis of the deposited data

Results flagged for a closer look

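Cyp2b10 in refed WT replicate 1 of batch 2, at 6.57 CPM, lay far above the other refed WT livers, which were at 0.237 to 1.39 CPM. The gap to the nearest of them took 0.818 of the range of the group. The search covered the highest and the lowest liver of 40 sets of 1 gene in 1 group, and chance marks about 1 in 20 groups.

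The refeeding effect on Cyp3a11 differed between the batches by 0.99 on the log2 scale (SE 0.20, edgeR adjusted p = 0.0101). The refeeding effect on Cyp2b10 differed by 3.13 (SE 0.75, edgeR adjusted p = 0.0242). Leaving out any of the 29 livers kept the Cyp3a11 difference between 0.89 and 1.07 and past the threshold in 29 of 29 fits, and the Cyp2b10 difference past it in 28 of 29. The exception for Cyp2b10 was the fit without the refed WT liver at 6.57 CPM, which gave 2.32 (edgeR adjusted p = 0.0611).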

How the results depend on the processing

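Por, Cyp2b10, Cyp3a13 and Cyp2c55 passed for refeeding averaged over genotypes in 29 of 29 fits that left out 1 liver, with ranges of −0.9996 to −0.90, −2.34 to −1.50, −0.38 to −0.30 and 0.71 to 0.88. Within batch 1 alone Cyp3a13 and Cyp2c55 did not pass, and within batch 2 alone Cyp2b10 did not. Of 4000 values of single genes under an alternative, 149 changed sign, and 113 of these were by less than 1 standard error with no call on either side. Most of the 4000 came from fits that left out 1 liver, which gave 2 of the other 36 sign changes. The remaining 34 came from the other scalings, filters, models and subsets. Low counts limit Cyp2b10 and Cyp2c55, and the groups of 3 or 4 livers within a batch limit every within-batch value. The cause of the changes below was not tested. Replicate numbers are shared by the groups, and 40 pairs of livers with the same number and batch correlated at −0.39 to 0.36 (median −0.03). Pairs with different numbers were not compared, so this does not settle whether the numbers pair livers. With the replicate number as a block, 4 of the 10 genes passed for refeeding on average, 2 in WT, 2 in K556R and 3 for the difference of the refeeding effect between batches, where Por joined (0.84, edgeR adjusted p = 0.0309).

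For K556R against WT when fasted, 16 genes of all tested passed; DESeq2 gave 89, no filter 45, a filter of 1 CPM in 6 libraries 10, no batch term 2, batch 1 33, batch 2 0, the replicate block 2 and the fit without the 3 libraries 3. When refed it was 0 genes, with DESeq2 45, no filter 10, batch 1 5, batch 2 7 and without the 3 libraries 9. Averaged over feeding it was 194 genes (98 higher, 96 lower), with DESeq2 425, no batch term 98, batch 1 125, batch 2 0 and the block 92; library totals alone gave 139 higher and 16 lower. For refeeding in WT 1667 genes passed, in batch 1 846 and in batch 2 592; in K556R it was 2397, in batch 1 1497; averaged it was 4001, in batch 1 2652. DESeq2 gave 1 gene for the K556R effect between batches, and 752 for the refeeding effect between batches, where edgeR gave 0 and 428. Of the 10 genes, batch 2 alone gave 0 for refeeding in WT and 5 in K556R. Without the 3 libraries 4 passed in WT and 5 in K556R, 2 between batches and 1 for the difference of the refeeding effect. Of the correlated pairs, 7 passed without the 2 farthest livers and 0 in batch 2.

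Leaving out 1 liver moved the gene counts for K556R to between 2 and 46 fasted, 0 and 20 refed and 116 and 309 on average, and those for the refeeding effect between batches to between 191 and 781. Of the 10 genes it left 1 to 3 for refeeding in WT, 2 to 4 in K556R, 0 to 1 between batches and 2 to 4 for the refeeding effect between batches. Cyp2b10 for K556R ranged from −1.63 to 0.11 when refed and from −0.63 to 0.22 on average.

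Batch 1 alone turned these log2 differences: K556R when fasted, Cyp3a13 0.10; K556R when refed, Cyp2c29 0.58, Cyp2c50 0.42, Cyp3a13 0.16, Cyp2c37 0.23 and Cyp2b10 0.083; K556R on average, Cyp3a13 0.13 and Cyp2b10 0.34; refeeding in WT, Cyp3a11 −0.42; in K556R, Cyp2c50 0.26 and Cyp2c54 0.75; on average, Cyp2c54 0.61. Batch 2 alone turned others. For K556R when fasted these were Cyp3a11 −0.16, Cyp3a25 −0.022 and Cyp2b10 −0.50, and when refed Cyp3a25 −0.14 and Cyp2c54 −1.40. For K556R on average they were Cyp3a11 −0.12, Cyp3a25 −0.083, Cyp2c29 −0.25, Cyp2c50 −0.25, Cyp2c37 −0.30 and Cyp2c54 −0.56. For refeeding they were Cyp2b10 0.55 in WT, Cyp3a11 0.52 and Cyp2c29 −0.47 in K556R, and Cyp3a11 0.48 and Cyp2c50 −0.29 on average. For the interaction they were Por 0.31 and Cyp2c55 0.26. Without the 3 libraries, Cyp2b10 for K556R was 0.25 when refed and 0.39 on average, and Cyp2c50 for refeeding was −0.014 in WT and −0.17 on average.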
